A study of Mus musculus with 6 samples.

Results

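The 35 genes described here encode the machinery that detects broken, crosslinked or mispaired DNA and repairs it. They are 4 checkpoint kinases, 13 genes of homologous recombination, 6 Fanconi genes, 6 genes of end joining and 6 of mismatch and base excision repair. They were taken by gene symbol from a list drawn up by pathway, with earlier results of these data known and no threshold on any value, and all 35 were found among the 17006 genes of the deposited tables. RNA was sequenced from primary neural stem cells cultured from the subventricular zone, the germinal layer beside the lateral ventricles, of C57BL/6 mice. The aged group (15 to 18 months) and the young group (2 months) had 3 libraries each. The mice carried no engineered allele that the labels name. Dissected tissue from 5 mice at a time was combined and dissociated, and the stem cells were then expanded in proliferation medium. The values therefore describe cells grown in culture in that medium. Libraries were made from 1 ug of total RNA after removal of rRNA. The labels do not say whether the libraries of an age came from separate cultures, and p-values measure the spread between these libraries.

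Homologous recombination copies a broken stretch of DNA from the sister chromatid and is therefore used mainly in S and G2 phase, whereas end joining rejoins broken ends directly and can act throughout the cell cycle. The Fanconi pathway unhooks crosslinks between strands and hands the resulting break to recombination. Mismatch repair corrects errors of the replication fork, and base excision repair removes oxidised, deaminated or missing bases. Proliferating progenitors of the brain depend on several of these pathways, and inherited loss of end joining or checkpoint genes causes disorders of the nervous system in humans.

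Levels are FPKM, a count of fragments corrected for transcript length and library size, and can therefore be compared between genes of different length. Depth, estimated from the steps between low values, was about 5260000 to 5450000 reads in each library. Neural progenitor markers were abundant, with Fabp7 highest at 2747 FPKM in aged and 2734 FPKM in young libraries. For 6 of the 8 markers the ages did not overlap, against 17.6% of all genes tested. Of these, 4 were higher in aged libraries, among them Sox2, and 2 lower, Nes and Vim. By limma, 0 of the 8 passed (lowest adjusted p 0.0608, for Vim). Markers of other cell types lay at lower levels than these 8. The 4 microglial markers found summed to 2.84 to 3.35 FPKM in aged and 2.60 to 4.0 FPKM in young libraries. Most of this was Cd68, at 2.64 FPKM in aged and 2.77 FPKM in young libraries, while Ptprc was at 0 to 0.04 FPKM in all 6. The 3 endothelial markers summed to 0.37 to 0.57 FPKM in aged and 0.32 to 1.04 FPKM in young libraries. The 4 fibroblast and pericyte markers summed to 2.58 to 3.56 FPKM in aged and 0.35 to 0.54 FPKM in young libraries, without overlap. Col1a1 made up most of this, at 2.46 FPKM in aged and 0.423 FPKM in young libraries (log2 change 1.28, limma adjusted p = 0.0107), and Col1a2 was at 0.633 FPKM in aged and 0.0133 FPKM in young libraries, while Dcn and Pdgfrb stayed at 0.1 FPKM or less. The 4 neuron markers summed to 5.02 to 6.88 FPKM in aged and 3.83 to 4.58 FPKM in young libraries, and the 4 markers of mature oligodendrocytes to 2.75 to 2.84 FPKM in aged and 3.09 to 3.60 FPKM in young libraries, both without overlap. The 4 ependymal markers summed to 11.8 to 15.1 FPKM in aged and 13 to 14.5 FPKM in young libraries, most of it Foxj1 at 10.1 FPKM in aged and 11.8 FPKM in young libraries. The part of these markers in the results below was not tested.

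Repair genes were expressed at similar levels in cells from aged and from young mice, and none passed the test. Summed over the 35 genes, the level was 462.2, 465.2 and 461.4 FPKM in aged libraries and 458.9, 465.9 and 458.3 FPKM in young libraries, so the groups overlapped. The sum weighs abundant genes most. The 6 genes of mismatch and base excision repair gave 229.17, 231.78 and 230.35 FPKM of it in aged and 222.64, 230.26 and 227.76 FPKM in young libraries. By limma on log2(FPKM + 1), 0 of the 35 genes passed at an adjusted p under 0.05, against 0.722% of the 11912 genes tested (86 genes), and the adjusted p of the 35 ran from 0.287 to 0.978. At an unadjusted p under 0.05, 1 of 35 (2.86%) was lower in aged libraries and 0 were higher, against 5.55% of all genes tested lower, 6.3% higher and 11.9% in either direction. The values of aged and young libraries did not overlap for 4 of 35 genes (11.4%), against 17.6% of all genes tested. These were Brca1 and Trp53bp1, both lower in aged libraries, and Xrcc2 and Xrcc5, both higher. These shares are no larger than the background, so the counts do not set repair genes apart from other genes.

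The precision of the data bounds what was seen. All 35 genes had a mean of at least 1 FPKM, the minimum for the test. Log2 changes of FPKM + 1 between aged and young libraries ran from -0.22 (Fancc) to 0.18 (Fancl), with 15 genes higher and 20 lower in aged libraries. Their median was -0.025 (-0.00068 without young replicate 1), against 0.0027 over all genes tested, and the median size of the change was 0.063, against 0.070 over all genes tested. The 95% interval of the change lay within 0.5 on the log2 scale, a 1.41-fold difference in FPKM + 1, for 34 of the 35 genes. It lay within 0.3, a 1.23-fold difference, for 20 of them. The exception at the wider bound was Fancc, whose interval reached -0.501. Exons of 18 of the 35 genes overlap those of another annotated gene, mostly on the other strand, and for 7 of them an overlap covers over 10% of the exon bases. Reads there cannot be assigned without strand. Brca1, Xrcc2 and Xrcc5 have no such overlap.

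**Figure D1:**
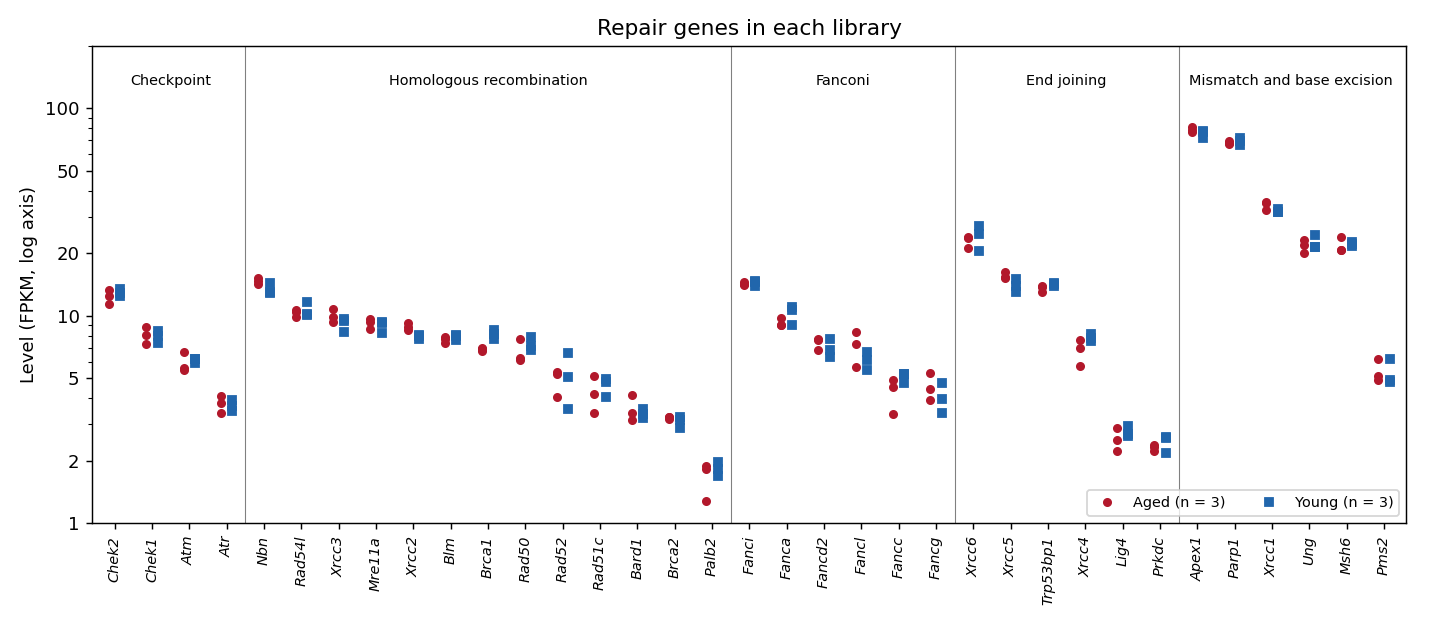
Level of each of the 35 repair genes in FPKM on a log axis, ordered by pathway and by mean level, with circles for the 3 aged libraries and squares for the 3 young libraries. Apex1 and Parp1 lie highest near 70 to 80 FPKM and Palb2 lowest between 1.28 and 1.98 FPKM, and the libraries of both ages overlap for 31 of the 35 genes.

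**Figure D2:**
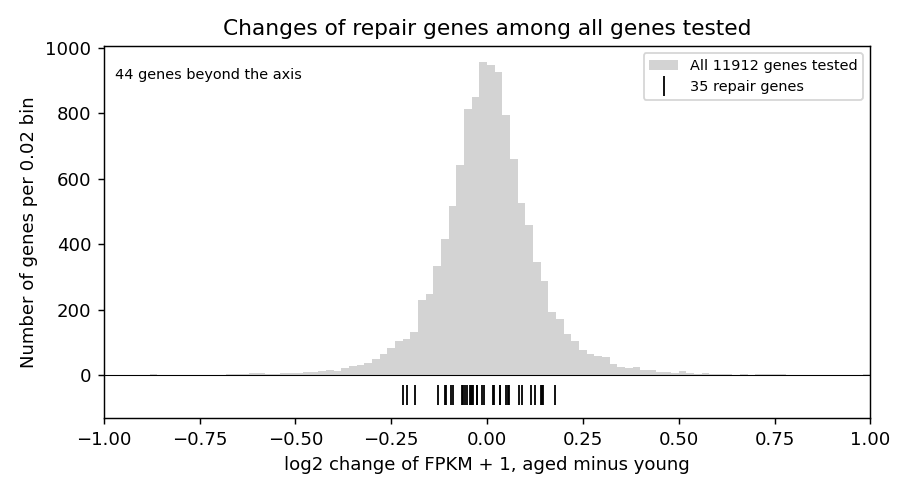
Log2 changes of FPKM + 1, aged minus young, for all 11912 genes tested (grey histogram, genes per 0.02 bin, with 44 genes beyond the axis) and for the 35 repair genes (black ticks). The ticks lie between -0.22 and 0.18, inside the bulk of all genes.

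Brca1, the tumour suppressor that directs broken ends into recombination and acts as a ubiquitin ligase with Bard1, had the smallest p of the 35 genes. It had 6.79, 6.98 and 6.89 FPKM in aged libraries, against 8.16, 7.69 and 8.52 FPKM in young libraries. Every aged library lay below every young one, and the aged libraries were within 0.2 FPKM of each other. The means were 6.89 ± 0.095 FPKM in aged and 8.12 ± 0.416 FPKM in young libraries (SD, n = 3 each), or about 264 estimated reads per library, at which read sampling alone gives a coefficient of variation of 6.15%. The log2 change was -0.21 ± 0.07 (SE), with a 95% interval from -0.37 to -0.046. With a limma unadjusted p of 0.0177 and an adjusted p of 0.287 it did not pass. Without young replicate 3, the highest young library, its unadjusted p was 0.0640. In bulk libraries, fewer cells that express a gene and less of its RNA per cell cannot be told apart.

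The promoters of Brca1, Xrcc5 and Trp53bp1 are shown because these genes, with Xrcc2, were the ones whose libraries separated by age. Each runs from 250 bases before to 50 bases after an annotated start (RefSeq, GRCm38.p6, the mm10 assembly), written 5′ to 3′ on the strand of the gene, with capitals on the motifs found. The start used for Trp53bp1 lies 24947 bases inside the outer end of its annotated span, so other starts of this gene are not shown. The motifs searched on both strands were CCAAT, the GC box GGGCGG, the cell cycle element TTTGAA and 3 forms of the E2F site (TTTGGCGC, TTTCGCGC and TTCCCGCC), some of which can overlap in sequence.
Brca1 (chr11:101551906-101552205, minus strand): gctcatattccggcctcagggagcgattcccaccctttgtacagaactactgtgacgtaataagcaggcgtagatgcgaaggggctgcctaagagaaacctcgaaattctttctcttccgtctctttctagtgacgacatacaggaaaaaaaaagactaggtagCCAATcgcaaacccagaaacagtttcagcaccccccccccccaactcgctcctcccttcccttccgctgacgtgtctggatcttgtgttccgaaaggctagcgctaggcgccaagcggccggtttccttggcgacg
Xrcc5 (chr1:72307171-72307470, plus strand): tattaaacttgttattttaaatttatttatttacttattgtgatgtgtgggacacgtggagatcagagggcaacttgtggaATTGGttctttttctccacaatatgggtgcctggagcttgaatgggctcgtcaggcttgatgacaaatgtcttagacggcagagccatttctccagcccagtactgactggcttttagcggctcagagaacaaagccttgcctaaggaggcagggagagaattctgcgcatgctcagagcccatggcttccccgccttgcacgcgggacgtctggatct
Trp53bp1 (chr2:121271358-121271657, minus strand): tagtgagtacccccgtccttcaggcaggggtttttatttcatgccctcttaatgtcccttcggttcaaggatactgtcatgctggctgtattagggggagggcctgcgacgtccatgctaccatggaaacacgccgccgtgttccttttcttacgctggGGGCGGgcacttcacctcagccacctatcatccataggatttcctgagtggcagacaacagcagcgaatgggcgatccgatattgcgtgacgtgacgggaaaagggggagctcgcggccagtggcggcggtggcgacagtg
The Brca1 window held a CCAAT box that begins 86 bases before the start, Xrcc5 held its reverse complement 169 bases before the start, and Trp53bp1 held a GC box 91 bases before the start. None of the 3 windows held one of the E2F forms searched, which says only that these letters are not there. Promoters were found for 30 of the 35 genes, and a gene was counted if any of its starts held the motif, for the 30 and for all 27025 genes in the table alike. CCAAT stood in 16 of the 30 (53.3%), against 41.1% of all genes, and GGGCGG in 21 (70.0%), against 38.2%. TTTGAA stood in 1 (3.33%), against 20.2%, and any of the 3 E2F forms in 3 of the 30, against 3.39%. Per promoter, the shares over all 32851 promoters were 37.4%, 35.7%, 17.9% and 2.96%. The 27025 genes were not limited to genes tested here, whereas all 30 were tested, so these shares are not matched for expression. These matches are a description of the letters and not of binding.

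Brca1 (mm10 chromosome 11, 101488761 to 101551955) lies head to head with Nbr1, an autophagy receptor gene, whose annotated span begins 152 bases away. Nbr1 had 41.70, 37.61 and 38.82 FPKM in aged libraries, against 41.93, 40.09 and 39.03 FPKM in young libraries, and these overlapped. The ratio of Brca1 to Nbr1 levels was 0.163, 0.186 and 0.177 in aged libraries and 0.195, 0.192 and 0.218 in young libraries, without overlap. Nbr1 was named after the values of Brca1 were known, so this ratio largely restates those values and carries no test.

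**Figure D3:**
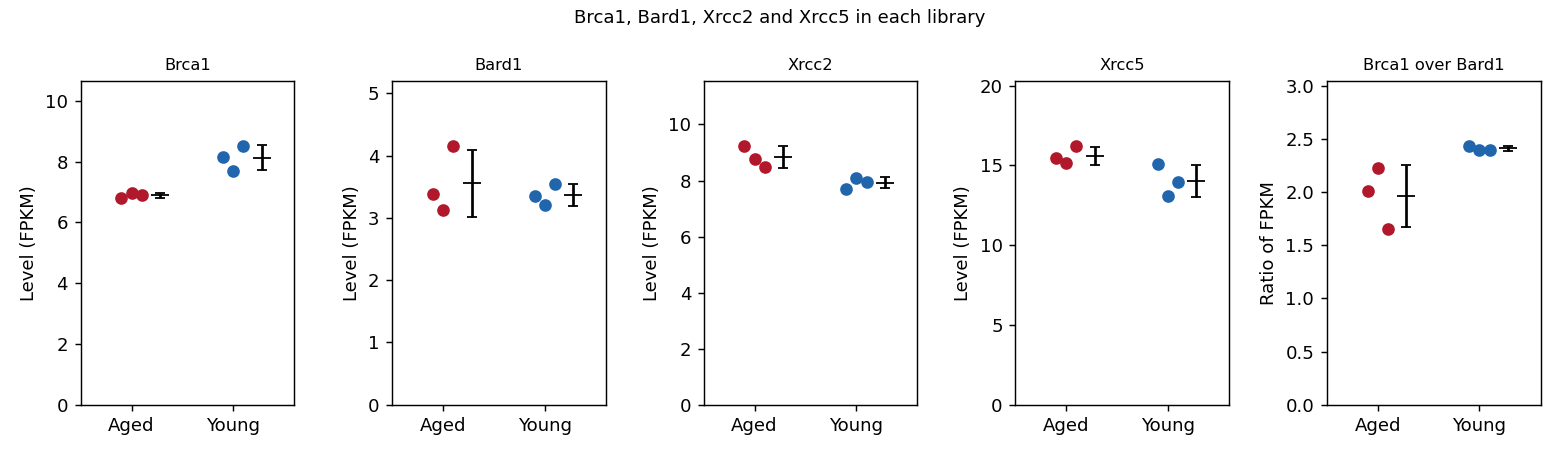
Levels of Brca1, Bard1, Xrcc2 and Xrcc5 in FPKM and the ratio of Brca1 to Bard1 levels, with a point per library (aged left, young right) and a bar for the mean and SD of 3 libraries. Brca1 and the ratio lie lower in every aged library than in every young one, Xrcc2 and Xrcc5 lie higher, and Bard1 overlaps.

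Genes whose products work with Brca1 overlapped between the ages. Bard1, its obligate RING partner, had 3.38, 3.13 and 4.16 FPKM in aged libraries, against 3.35, 3.21 and 3.55 FPKM in young libraries, with a log2 change of 0.055 ± 0.11 (SE). The ratio of Brca1 to Bard1 levels was 2.01, 2.23 and 1.66 in aged libraries, against 2.44, 2.40 and 2.40 in young libraries. The ratio was therefore lower in every aged library, with a spread of 0.289 (SD) there and 0.022 in young libraries. It was 1 of 12 ratios computed, with that to Nbr1 among them, and the pairs were chosen with the levels known, so it carries no test. Palb2, which bridges Brca1 and Brca2, was the lowest of the 35 genes at 1.67 ± 0.336 FPKM in aged and 1.83 ± 0.145 FPKM in young libraries (SD, n = 3 each), about 35.1 estimated reads per library. Unlike the ratio to Bard1, the ratio of Brca1 to Palb2 levels overlapped. It was 3.71, 3.69 and 5.38 in aged libraries, against 4.83, 4.20 and 4.30 in young libraries. Brca2, which loads the recombinase onto single-stranded DNA, had 3.26, 3.26 and 3.17 FPKM in aged libraries, against 2.89, 3.25 and 3.13 FPKM in young libraries. Its groups overlapped, and its log2 change was 0.05 ± 0.10 (SE, limma adjusted p = 0.900).

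Among the recombinase paralogs, Xrcc2 had 9.24, 8.78 and 8.49 FPKM in aged libraries, against 7.71, 8.10 and 7.96 FPKM in young libraries. Every aged library lay above every young one, with a log2 change of 0.14 ± 0.07 (SE), a limma unadjusted p of 0.0717 and an adjusted p of 0.479. Xrcc3, which forms a complex with Rad51c, averaged 9.97 ± 0.746 FPKM in aged and 9.12 ± 0.658 FPKM in young libraries. Rad51c averaged 4.25 ± 0.872 FPKM in aged and 4.61 ± 0.484 FPKM in young libraries (SD, n = 3 each), and both genes overlapped between the ages. The Rad51c level was 0.430 ± 0.104 of that of Xrcc3 in aged and 0.505 ± 0.017 in young libraries.

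The Mre11-Rad50-Nbn complex, which senses broken ends and starts their resection, contained the highest of the recombination genes. Nbn, its regulatory subunit, had 14.17, 15.18 and 14.69 FPKM in aged libraries, against 12.85, 12.98 and 14.33 FPKM in young libraries. Only young replicate 3 reached into the aged range (log2 change 0.13 ± 0.06 SE, limma adjusted p = 0.506). The nuclease Mre11a averaged 9.19 FPKM in aged and 8.95 FPKM in young libraries, and the ATPase Rad50 averaged 6.69 FPKM in aged and 7.27 FPKM in young libraries. Nbn was thus the most abundant transcript of the complex per length and Rad50 the least in all 6 libraries. The ratio of Nbn to Rad50 levels was 2.21 ± 0.223 in aged and 1.85 ± 0.234 in young libraries (SD, n = 3 each), with overlap.

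The remaining recombination genes overlapped between the ages. The motor protein gene Rad54l averaged 10.3 FPKM in aged and 10.6 FPKM in young libraries. The helicase gene Blm, whose product dissolves joint molecules, averaged 7.67 FPKM in aged and 7.90 FPKM in young libraries. Rad52, an annealing protein, varied most between libraries of an age, with 5.34, 4.07 and 5.23 FPKM in aged and 3.57, 6.59 and 5.08 FPKM in young libraries. Its coefficient of variation within groups was 23.7%, against 15.0% from read sampling at about 44.7 estimated reads. Its 95% interval ran from -0.43 to 0.38 on the log2 scale. Of the 13 recombination genes, 6 were higher and 7 lower in aged libraries, with a median log2 change of -0.025 and 0 past the test. That median turned positive without aged replicate 2 (0.012), young replicate 1 (0.014) or young replicate 2 (0.028).

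Checkpoint kinases, which halt the cell cycle when DNA is damaged, differed least in the size of their changes among the pathways, with a median size of 0.028 on the log2 scale. Atm, the kinase activated by double-strand breaks, had 5.57, 6.68 and 5.48 FPKM in aged libraries, against 6.16, 5.92 and 6.16 FPKM in young libraries. Atr, activated by single-stranded DNA at stalled forks, had 3.78, 4.11 and 3.38 FPKM in aged libraries, against 3.68, 3.94 and 3.46 FPKM in young libraries. The aged libraries of both kinases spanned the young range and reached beyond it. Of the effector kinases, Chek2, which acts downstream of Atm, had 12.40, 11.41 and 13.34 FPKM in aged libraries, against 12.44, 13.45 and 12.87 FPKM in young libraries. Chek1, which acts downstream of Atr, averaged 8.06 FPKM in aged and 7.96 FPKM in young libraries. All 4 kinases overlapped between the ages, their limma adjusted p ran from 0.825 to 0.974, and all 4 had 95% intervals within 0.3 on the log2 scale. In both ages the transcript of the effector kinase exceeded that of its upstream kinase per length. The ratio was 2.15 ± 0.180 in aged and 2.16 ± 0.243 in young libraries for Chek1 to Atr, and 2.12 ± 0.374 in aged and 2.13 ± 0.130 in young libraries for Chek2 to Atm (SD, n = 3 each).

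The Fanconi genes summed to nearly the same level in every library, 47.07, 46.41 and 47.17 FPKM in aged and 46.79, 46.87 and 46.77 FPKM in young libraries. Fanci, which forms the clamp that is ubiquitinated at crosslinks together with Fancd2, was the highest of them. It had 14.22, 14.00 and 14.62 FPKM in aged libraries, against 14.55, 14.68 and 13.90 FPKM in young libraries, with overlap (log2 change -0.0089 ± 0.06 SE, limma adjusted p = 0.976). Fancd2 averaged 7.41 FPKM in aged and 6.95 FPKM in young libraries. The ratio of Fanci to Fancd2 levels was 1.93 ± 0.133 in aged and 2.08 ± 0.160 in young libraries. Fancl, the ubiquitin ligase that modifies this pair, had 8.31, 5.65 and 7.34 FPKM in aged libraries, against 6.11, 6.71 and 5.50 FPKM in young libraries. Fancc, a subunit of the core complex, had 3.37, 4.88 and 4.52 FPKM in aged libraries, against 5.26, 4.73 and 5.25 FPKM in young libraries. Fancl and Fancc had the largest positive and negative log2 changes of the 35 genes (limma adjusted p = 0.668 and 0.552), and in each a single aged library (replicate 2) lay inside the young range. Both values moved with the aged library left out. The log2 change of Fancl was 0.31 without aged replicate 2 and 0.071 without aged replicate 1, and that of Fancc was -0.31 and -0.093 in the same order, with limma adjusted p from 0.296 to 0.911 in these fits. Without aged replicate 1 the largest changes were those of Xrcc5 (0.15) and Rad51c (-0.23). The core complex genes Fanca (9.27 FPKM in aged, 10.3 FPKM in young libraries) and Fancg (4.56 FPKM in aged, 4.04 FPKM in young libraries) leaned in opposite directions with overlap. Of the 6 genes, 3 were higher and 3 lower in aged libraries.

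**Figure D4:**
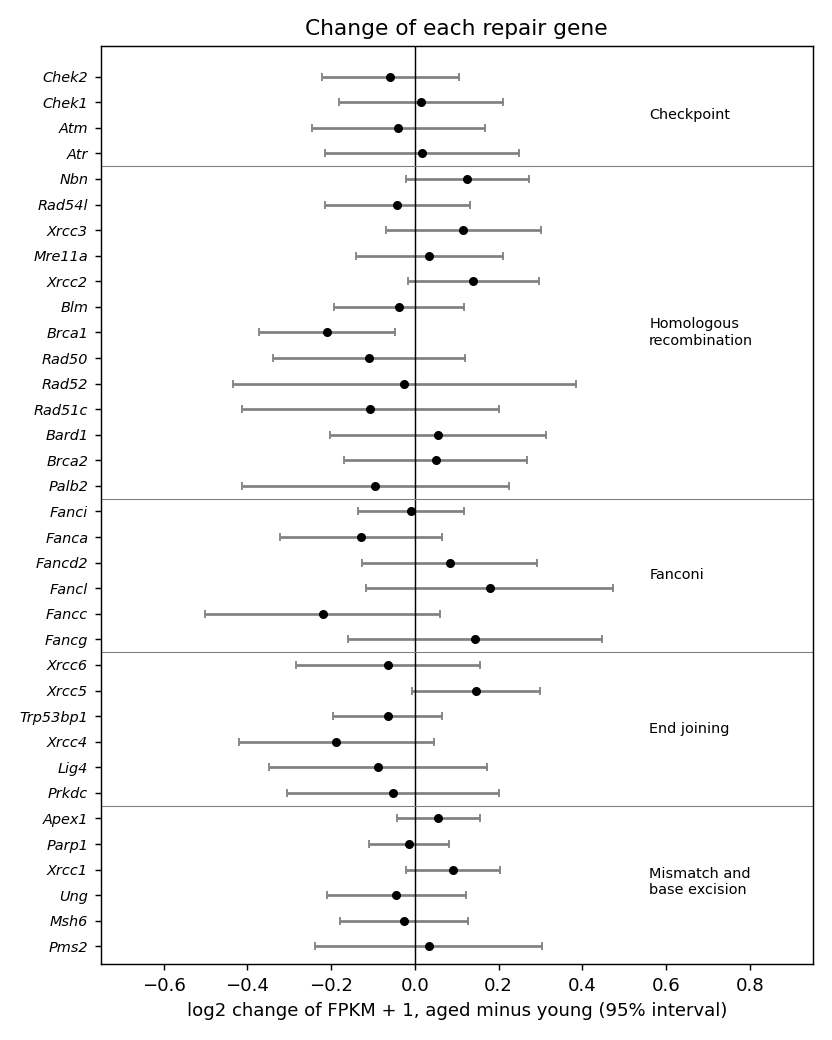
Log2 change of FPKM + 1, aged minus young, for each of the 35 repair genes by pathway, with points for the estimate and bars for its 95% interval from limma. The interval of Brca1, from -0.37 to -0.046, is the one that does not include 0 before adjustment over all genes, and that of Rad52 is the widest.

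End joining genes include the Ku dimer, which caps broken ends, the kinase it recruits, and the ligase complex that seals them. Xrcc5, which encodes Ku80, had 15.46, 15.14 and 16.23 FPKM in aged libraries, against 15.07, 13.06 and 13.95 FPKM in young libraries. Every aged library lay above every young one, by as little as 0.07 FPKM, with a log2 change of 0.15 ± 0.07 (SE), a limma unadjusted p of 0.0587 and an adjusted p of 0.445. Its partner Xrcc6, which encodes Ku70, had 23.81, 23.89 and 21.22 FPKM in aged libraries, against 27.11, 24.82 and 20.57 FPKM in young libraries. These overlapped, and the spread of Xrcc6 within groups was 1.79 times that of read sampling, the most of the 35 genes. The ratio of Ku70 to Ku80 transcripts was 1.54, 1.58 and 1.31 in aged libraries and 1.80, 1.90 and 1.47 in young libraries, with overlap.

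Trp53bp1, which encodes 53BP1, shields broken ends from resection and so opposes Brca1 in the choice of pathway. It had 12.96, 13.85 and 13.72 FPKM in aged libraries, against 14.44, 14.21 and 13.87 FPKM in young libraries. The aged libraries lay below the young ones by as little as 0.02 FPKM, a log2 difference of -0.065 ± 0.06 (SE, limma adjusted p = 0.735). Of its annotated exon bases, 15.0% are shared with Tubgcp4 on the other strand, and the strand setting of the authors' quantification is not given in the sources used here. Xrcc4, the scaffold of the ligase, averaged 6.78 ± 0.995 FPKM in aged and 7.82 ± 0.293 FPKM in young libraries (SD, n = 3 each, limma adjusted p = 0.537). The ligase gene Lig4 averaged 2.54 FPKM in aged and 2.75 FPKM in young libraries, and Prkdc, the DNA-dependent protein kinase, averaged 2.32 FPKM in aged and 2.44 FPKM in young libraries. In all, 5 of the 6 end joining genes were lower and 1 higher in aged libraries, with 0 past the test and a median log2 change of -0.064.

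Base excision and mismatch repair held the most abundant of the 35 transcripts. Apex1, the endonuclease that cuts at sites without a base, had 76.51, 81.29 and 78.66 FPKM in aged libraries, against 72.09, 77.32 and 77.95 FPKM in young libraries. These overlapped (log2 change 0.056 ± 0.04 SE, limma adjusted p = 0.694), and 61.7% of the annotated exon bases of Apex1 are shared with Pip4p1 on the other strand. Parp1, which marks strand breaks with poly(ADP-ribose), averaged 68.5 ± 1.15 FPKM in aged and 69.2 ± 2.90 FPKM in young libraries (SD, n = 3 each). At about 1428 estimated reads it was measured most precisely, with a 95% interval from -0.11 to 0.081 on the log2 scale. Xrcc1, the scaffold of single-strand break repair, averaged 34.2 FPKM in aged and 32.0 FPKM in young libraries (limma adjusted p = 0.531). The uracil glycosylase gene Ung averaged 21.7 FPKM in aged and 22.4 FPKM in young libraries. Of the mismatch repair genes, Msh6, which recognises mispaired bases, averaged 21.8 FPKM in aged and 22.1 FPKM in young libraries, and the endonuclease gene Pms2 averaged 5.42 FPKM in aged and 5.29 FPKM in young libraries. All 6 genes overlapped between the ages, 3 were higher and 3 lower in aged libraries, and 0 passed the test.

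The spread between libraries of an age was close to what read sampling alone gives. The median coefficient of variation within groups was 7.52% over the 35 genes, against 7.87% from read sampling at their estimated reads, and it exceeded the sampling value in 16 of the 35. Over all genes tested these medians were 7.17% and 6.89%, so this was not particular to repair genes. The 35 genes were also less abundant than the typical tested gene, with a median of 7.79 FPKM against 12.5 FPKM, and 11 of them (31.4%) lay above the median of all genes tested.

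The wider set of repair genes also held no called gene. Of 82 other genes of the same pathways, 81 passed the minimum level and 0 passed limma, again against 0.722% of all genes tested. At an unadjusted p under 0.05, 4 were higher in aged libraries and 0 lower, against 6.3% of all genes tested higher and 5.55% lower. Of these 4, the checkpoint clamp gene Rad9a had 21.05, 22.40 and 21.47 FPKM in aged libraries, against 19.63, 18.17 and 19.64 FPKM in young libraries (limma adjusted p = 0.270). Fance, a Fanconi core subunit, had 25.57, 24.59 and 23.82 FPKM in aged libraries, against 21.89, 22.93 and 21.70 FPKM in young libraries (limma adjusted p = 0.298). Neither gene overlapped between the ages. Parp2, a relative of Parp1, averaged 16.9 FPKM in aged and 14.3 FPKM in young libraries with overlap, and H2afx, the histone variant phosphorylated at breaks, averaged 166.4 FPKM in aged and 157.9 FPKM in young libraries without overlap. H2afx was named after its values were seen. Those with the smallest p among genes lower in aged libraries were Wdr48 (17.7 FPKM in aged, 19.1 FPKM in young libraries), Fancf (5.90 FPKM in aged, 6.71 FPKM in young libraries) and Rad54b (4.23 FPKM in aged, 4.81 FPKM in young libraries), with limma adjusted p from 0.578 to 0.607. The groups did not overlap for 5 of the 81 genes (6.17%), against 17.6% of all genes tested, and the median log2 change was 0.019.

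Because many repair genes are transcribed most in S and G2 phase, genes of proliferation were set beside them. Mki67, a marker of cycling cells, had 64.94, 64.10 and 62.02 FPKM in aged libraries, against 62.62, 60.45 and 63.79 FPKM in young libraries. Pcna, the replication clamp, averaged 342.0 FPKM in aged and 335.3 FPKM in young libraries, and the helicase subunit gene Mcm2 averaged 80.7 FPKM in aged and 78.3 FPKM in young libraries. Ccne2, a cyclin of S phase entry, averaged 10.9 FPKM in aged and 11.3 FPKM in young libraries. These 4 overlapped between the ages, and their limma adjusted p ran from 0.726 to 0.859. Of the 20 proliferation genes, 0 passed limma, against 0.722% of all genes tested. At an unadjusted p under 0.05, 1 was lower and 0 were higher in aged libraries, against 5.55% and 6.3% of all genes tested. The lower gene was Ccne1, named after its values were seen, at 16.97, 16.07 and 18.25 FPKM in aged libraries and 21.04, 18.12 and 20.97 FPKM in young libraries (limma adjusted p = 0.296). In all, 15 of the 20 were higher and 5 lower in aged libraries, with a median log2 change of 0.031. The ages did not overlap for 3 of the 20, against 17.6% of all genes tested. These were Top2a, Mcm5 and Ccna2, all higher in aged libraries (limma adjusted p from 0.502 to 0.768) and named after their values were seen. The 20 genes summed to 1440 to 1472 FPKM in aged and 1431 to 1442 FPKM in young libraries, with overlap. The part of proliferation in the difference of Brca1 was not tested.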

How the data were processed

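The authors deposited a table of gene-level FPKM, rounded to 2 decimals, for each of 3 aged and 3 young libraries (unit per the file headers). Per the submitters' processing notes, TopHat and Cuffdiff were used with build mm10, in versions and roles that are not stated. Annotation, strand setting and scaling between libraries are not given in the sources used here.

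Ages were compared on log2(FPKM + 1) with limma 3.58.1 (R 4.3.3), using its mean-variance trend and no covariates. The 11912 genes that averaged 1 FPKM or more entered the two-sided test, and p was adjusted over all of them by Benjamini-Hochberg at a threshold of 0.05. The scale of FPKM + 1 understates changes of low genes. The members and lists were chosen with earlier results of these data known. By rule, values per library are given for members with an unadjusted p under 0.05 or without overlap, the most abundant of each pathway, Brca1, Brca2, Atm, Atr and Trp53bp1. Others were added as description. The other repair genes named are the 3 with the smallest p in each direction.

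Depth came from the steps of low values in genes with 1 transcript, where 44.8% to 60.4% of values between 3.5 and 10.5 reads fell no more than 0.15 from a whole read (30% are expected of evenly spread values). Estimated reads use mean transcript lengths and are approximate. The test was checked on simulated data with known changes. Entrez identifiers matched a RefSeq table of GRCm38.p6 for 16962 of 17006 genes. Exon overlaps came from GENCODE (GRCm38). The markers Aif1 and Cdh5 were not matched. Python 3.11.15 with pandas 2.3.3, numpy 2.4.6 and, for figures, matplotlib 3.10.9 was used. Other settings tried were the pseudocount, filter, scaling, trend, robust fit, replicate block and each library left out.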

Additional observations from a re-analysis of the deposited data

How the results depend on the processing

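In each of the 16 alternatives, 0 of the repair genes and 0 of the other repair genes passed limma. At an unadjusted p under 0.05 there were 1 to 4 of the 35 repair genes. Of the 81 other repair genes (82 without a filter) there were also 1 to 4. The main fit had 11.9% of all genes tested. Over the alternatives, counts over all genes ran from 1126 of 9002 tested (minimum of 5 FPKM) to 1707 of 17006 (no filter). Without aged replicate 2 there were 4 of the 35, against 1451 of all 11912 genes tested. With a minimum of 5 FPKM, 25 of the 35 could be tested. Over all genes, 86 were called, against 11 without limma's trend, 22 with a replicate block and 39 to 63 with a library left out. The deviations of same-numbered libraries correlated at 0.00795, -0.0719 and 0.108, and those of differently numbered libraries at -0.109 to 0.111. With 3 libraries per age this cannot show whether a number stands for a shared batch. Of 550 values of single genes, 527 kept their direction and 23 turned, each with a library left out. The log2 changes then ran from -0.12 to 0.0049 for Atm, -0.035 to 0.076 for Atr, -0.038 to 0.12 for Bard1, -0.043 to 0.074 for Chek1, -0.031 to 0.0053 for Fanci, -0.016 to 0.076 for Mre11a, -0.094 to 0.0097 for Msh6, -0.16 to 0.015 for Palb2, -0.045 to 0.015 for Parp1, -0.054 to 0.13 for Pms2, -0.23 to 0.012 for Rad51c, -0.22 to 0.15 for Rad52, -0.078 to 0.022 for Rad54l, -0.092 to 0.015 for Ung and -0.17 to 0.021 for Xrcc6. Brca1 stayed lower in aged libraries in all alternatives (log2 change -0.24 to -0.14, unadjusted p 0.00629 to 0.0640, adjusted p 0.233 to 0.519), and Xrcc2 (0.098 to 0.17) and Xrcc5 (0.099 to 0.20) stayed higher. The depth of these libraries limits genes of few reads such as Palb2 and Rad52.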
